A study of Mus musculus with 13 samples.

Results

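Among the replication origins of control mouse embryonic stem (ES) cells, 20814 kept a peak in only 1 of the 2 replicates treated with the G-quadruplex ligand PhenDC3. They were found by joining the peaks of 5 lists wherever they overlapped by at least 1 bp on the nuclear chromosomes, which gave 246934 regions. A control origin was a region with a peak in at least 2 of the 3 control lists, and 72964 regions met this. The members are therefore 28.5% of the control origins and 8.43% of all regions. Of them, 9454 had their peak in PhenDC3 replicate 1 (13% of the control origins) and 11360 in PhenDC3 replicate 2 (15.6%). The other control origins are called common where both PhenDC3 lists had a peak (33405, or 45.8%) and suppressed where neither had (18745, or 25.7%).

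CGR8 cells, a feeder-free mouse ES line kept in leukemia inhibitory factor, were cultured for 48 h with 10 μM PhenDC3 dissolved in 0.5% DMSO, and the controls (Ctrl) received the solvent alone, so DMSO is common to all groups. Nascent strands were sequenced (SNS-seq) in 3 Ctrl and 2 PhenDC3 samples, with 1 RNase-treated library per condition as the background of the peak calls. RNA-seq was done on 3 Ctrl and 3 PhenDC3 samples. One cell line was used, and no SNS-seq list gives read counts, so depth behind a peak is unknown.

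Replication starts at origins, where the helicase loaded in G1 opens the DNA, and the first products are short RNA-primed strands. SNS-seq purifies those strands, with a nuclease that spares DNA carrying an RNA primer, and maps where they pile up. Many mammalian origins lie beside a G-quadruplex (G4), a stack of guanine tetrads folded from neighbouring runs of G, and PhenDC3 binds and stabilizes such stacks. A control origin with a peak in 1 treated sample and not in the other is not reproducible among the treated samples. Its control peaks still make it an origin, and such regions are described here.

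The sequences below show how the G4 of the strongest members are composed, where they have one. They belong to the members with the highest control enrichment, ranked by the lowest of the 3 control values among regions with a peak in all 3 controls. Each is the strongest predicted G4 within 500 bp of the centre of the region, with 10 bases on each side, from the G-rich strand of GRCm38 (mm10), and capitals mark runs of at least 3 G.
Sun1 promoter, kept in PhenDC3 replicate 1, chr5:139200474-139200521, minus strand: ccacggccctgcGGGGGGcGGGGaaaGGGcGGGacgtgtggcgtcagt
Metap1d intron, kept in PhenDC3 replicate 2, chr2:71480342-71480383, plus strand: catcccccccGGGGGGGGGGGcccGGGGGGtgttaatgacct
Mgat5 intron, kept in PhenDC3 replicate 2, chr1:127411802-127411880, minus strand: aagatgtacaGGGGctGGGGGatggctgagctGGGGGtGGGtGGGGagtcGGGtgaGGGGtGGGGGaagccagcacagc
2900026A02Rik intron, kept in PhenDC3 replicate 2, chr5:113148677-113148754, minus strand: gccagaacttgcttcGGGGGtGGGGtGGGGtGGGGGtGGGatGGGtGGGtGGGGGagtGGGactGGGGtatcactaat
Gdap1 intron, kept in PhenDC3 replicate 2, chr1:17151389-17151467, minus strand: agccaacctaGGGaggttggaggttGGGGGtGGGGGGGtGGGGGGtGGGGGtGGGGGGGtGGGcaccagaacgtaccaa
The Gdap1 and 2900026A02Rik sequences string their G runs together mostly with single T, the Sun1 sequence with C and A, and the Metap1d sequence has 2 long G runs joined by CCC. Not every strong member has a G4. The regions at H4c4, H2bc3 and H4c9 (kept in PhenDC3 replicate 1) and at Fnbp1 (kept in replicate 2) have none at a G4Hunter threshold of 2. Among the G4 sequences of the regions reported, only that of Sun1 comes from a member kept in PhenDC3 replicate 1. The first of each subgroup without a G4 even at a threshold of 1.5 is shown over 81 bases of the plus strand. These lie around the summit of its highest control peak, with capitals on runs of at least 3 G or 3 C.
H2bc3 promoter, kept in PhenDC3 replicate 1, chr13:23746474-23746554: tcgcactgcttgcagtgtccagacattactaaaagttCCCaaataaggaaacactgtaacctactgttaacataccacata
Fnbp1 intron, kept in PhenDC3 replicate 2, chr2:31100835-31100915: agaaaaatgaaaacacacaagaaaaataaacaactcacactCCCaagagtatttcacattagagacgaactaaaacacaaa

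Fold enrichment, the ratio of a peak to its condition's RNase-treated library, was lower in the PhenDC3 list that kept the region than in any control list for all 9 of the strongest members reported here, which had been ranked on their control values. The region over H4c4, a histone H4 gene (chr13:23581329-23581898, coding exon), had 22.7 in Ctrl replicate 1, 17.9 in Ctrl replicate 2 and 22.8 in Ctrl replicate 3, and 8.88 in PhenDC3 replicate 1. At the promoter of H2bc3, a histone H2B gene, the controls had 21.7, 13.5 and 13.4 and PhenDC3 replicate 1 had 9.99. The region in an intron of Metap1d, which encodes a mitochondrial methionine aminopeptidase (chr2:71479907-71480329), had 21.2, 21.0 and 24.6 in the controls and 4.95 in PhenDC3 replicate 2. The 5 regions of the second subgroup reached 3.56 to 5.04 in PhenDC3 replicate 2, and the 4 of the first reached 8.88 to 10.8 in PhenDC3 replicate 1. The 2 conditions have different background libraries, so these ratios are set side by side and not tested.

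**Figure D1:**
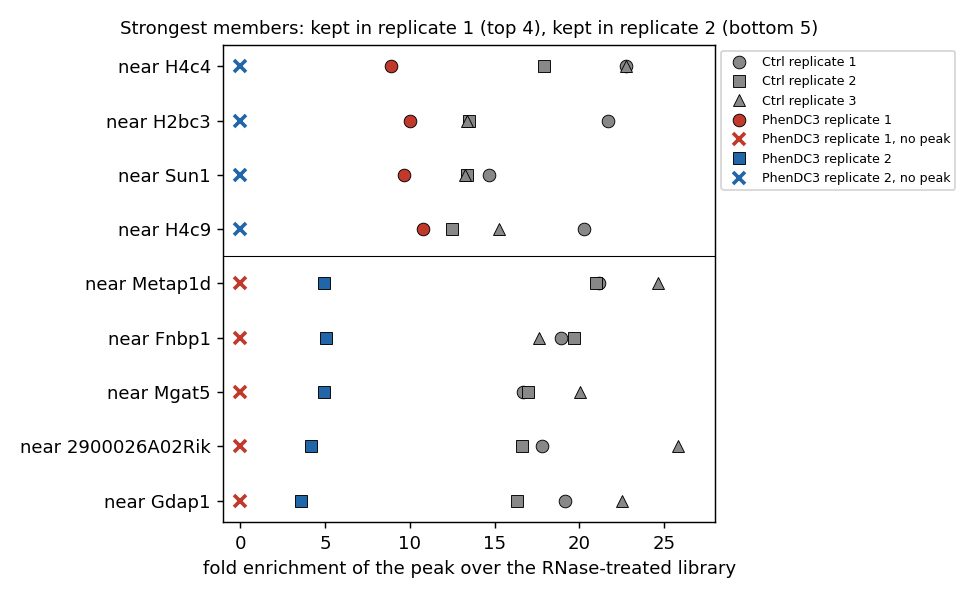
Fold enrichment over the RNase-treated library (x axis, a ratio) of 9 of the strongest members, named by the nearest gene, in each of the 5 lists, with a cross at 0 where a list has no peak. For the Metap1d region the controls sit at 21.2, 21.0 and 24.6, PhenDC3 replicate 2 at 4.95, and PhenDC3 replicate 1 has no peak.

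Of the 5 strongest members kept in PhenDC3 replicate 1 by the ranking above, 3 lay at genes of the clustered histones, H4c4, H2bc3 and H4c9. Transcripts of these genes are made in S phase. This was looked at further after the values had been seen. Over the body or the 2 kb upstream of 63 such genes, 14 regions were members kept in PhenDC3 replicate 1 and 1 was kept in PhenDC3 replicate 2, beside 34 common and 6 suppressed regions. Members were thus 15 of 55 control origins there, or 27.3%, near the 28.5% of all control origins. Over the whole genome, 79.3% of members in coding exons and 61.5% of those in promoters were kept in PhenDC3 replicate 1. The split between the subgroups at these genes was not tested. A single region can serve several of these closely packed genes. By gene, 23 of the 63 had a member kept in replicate 1, 2 had a member kept in replicate 2 and 48 had a common origin.

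The 5 lists were not alike, and this bears on every contrast between the subgroups. They held 79384 to 144116 peaks, with PhenDC3 replicate 1 the longest, and the median GC content at summits ran from 47.6% in PhenDC3 replicate 2 to 50.1% in Ctrl replicate 2. PhenDC3 replicate 2 had 7.20% of its summits under 40% GC, and PhenDC3 replicate 1 had 2.50%. The names of the peaks show adapter-filtered reads for Ctrl replicate 2 and PhenDC3 replicate 2 and not for the other 3 lists. Which treated sample kept an origin and how that library was made or handled cannot be told apart here. The RNA-seq libraries had 22232014 to 29486502 counts. In them the summed level of 6 ES markers was 3780 to 5058 CPM (counts scaled to the size of the library), against 11.6 to 26.8 for 5 fibroblast, 1.35 to 13.4 for 4 trophectoderm and 21.5 to 81.8 for 5 primitive endoderm markers.

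The control lists in which a member had a peak went with the treated list that kept it. Of the members kept in PhenDC3 replicate 1, 97.5% had a peak in Ctrl replicate 1, 77.3% in Ctrl replicate 2 and 53.3% in Ctrl replicate 3. For those kept in PhenDC3 replicate 2 the shares were 77.4%, 90.1% and 89.3%. Among members with peaks in Ctrl replicates 1 and 2 alone, 4416 were kept in PhenDC3 replicate 1 and 1215 in replicate 2. With Ctrl replicates 2 and 3 alone the order turned round, with 237 and 2565. Members with a peak in all 3 controls numbered 2651 and 6451. The rule used these same lists, so the counts are a description.

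Members lay between common and suppressed origins in how often all 3 controls had a peak. This was so at 28.04% of those kept in PhenDC3 replicate 1 and at 56.8% of those kept in replicate 2, beside 67.9% of common and 19.8% of suppressed origins. In Ctrl replicates 1, 2 and 3 taken singly, common origins had a peak at 93%, 88.3% and 86.6%. Suppressed origins had one at 81.8%, 79.9% and 58.2%. The shares of both subgroups in single controls, given above, all lay outside these ranges. Within each list, peaks were ranked by −log10 p, and in Ctrl replicate 1 the median percentile was 70.6 for members kept in PhenDC3 replicate 1, 61.6 for those kept in replicate 2, 74.5 for common and 51.1 for suppressed origins. The order of the subgroups was the opposite in the other controls, with 49.9 and 61.99 in Ctrl replicate 2 and 43.7 and 66.1 in Ctrl replicate 3, where suppressed origins had 46.1 and 41.7. In the list that kept them, members sat near the middle, at a median percentile of 51.8 in PhenDC3 replicate 1 and 49.9 in replicate 2, where common origins had 68.4 and 70.1. When origins were grouped by the highest control percentile, the share of members rose from 24.2% up to percentile 10 to 31.0% over percentile 80 to 90. Above percentile 90 it was 27.2%. From the lowest to the highest group the common share went from 27.6% to 63.2% and the suppressed share from 48.2% to 9.65%.

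In the PhenDC3 list without an overlapping peak, 25.5% of members (95% Wilson interval 24.9 to 26.1%) had a peak within 1 kb, and the median gap was 4298 bp. In PhenDC3 replicate 1 the share was 23.5% for members without a peak there and 36.7% for suppressed origins. In PhenDC3 replicate 2 it was 27.9% for members and 26.7% for suppressed origins. With the lists cut to the same number of peaks the member share was 16.7%. At the edge of the rule, 12 members rested on an overlap of 1 to 10 bp between the PhenDC3 peak and a control peak, and 13 had a peak 0 to 10 bp away in the list counted as empty, against a median overlap of 169 bp. The rule requires overlap, so a kept peak lies near a control peak by definition. The median distance between its summit and that of the highest control peak was 28 bp in PhenDC3 replicate 1 and 25 bp in replicate 2. At common origins it was 27 and 28 bp.

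The number of members depended on the controls. Without Ctrl replicate 1, and with a peak required in both other controls, there were 11904 members, and without Ctrl replicate 2 there were 12381. Their share of the control origins was 27.0% and 26.7%, but the subgroups moved apart. Members kept in PhenDC3 replicates 1 and 2 numbered 2888 and 9016 without Ctrl replicate 1, 4801 and 7580 without Ctrl replicate 2, 7067 and 7666 without Ctrl replicate 3, and 6626 and 15292 with equal numbers of peaks per list.

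Base composition separated the subgroups. In the 1 kb around the centre, median GC was 53.3% (quartiles 48.1 and 59.5%) for members kept in PhenDC3 replicate 1 and 46.6% (42.8 and 51.2%) for those kept in replicate 2, with 50.2% for common and 49.9% for suppressed origins between them. The share kept in replicate 1 rose with every step in GC, from 10.7% of members (interval 9.13 to 12.5%) at up to 40% GC to 80.6% (79.1 to 82.0%) above 60%. Members as a whole were 42.48% of control origins at up to 40% GC, fell in share to 24.1% just below 55% GC and were 34.1% above 60%. CpG-rich windows, with GC over 50% and an observed to expected CpG ratio over 0.6 as in CpG islands, made up 25.9% of the first subgroup and 7.61% of the second, a difference of 18.3 points (17.3 to 19.3) that had the same sign in 20 of 21 chromosomes. Such windows made up 9.58% of common and 21.1% of suppressed origins. Windows with more than 50% of their bases in annotated repeats were 9.96% and 17.9% of the subgroups. Common and suppressed origins had 18.2% and 11.9%.

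**Figure D2:**
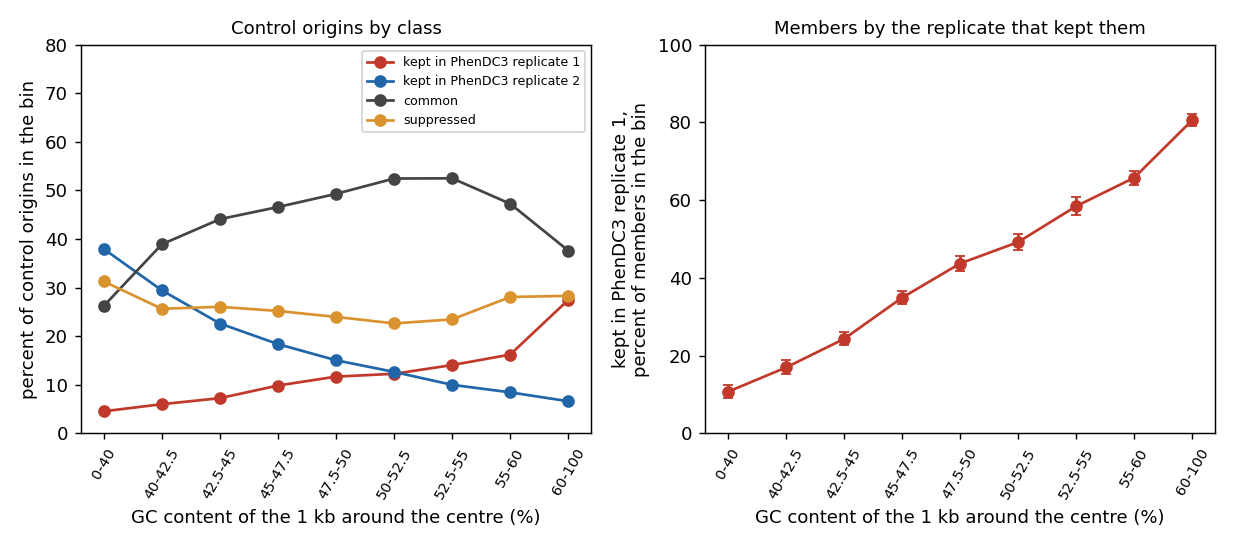
Left, the share of control origins in each bin of GC content (x axis, percent GC in 1 kb) that belonged to each class. Right, members kept in PhenDC3 replicate 1 as a percentage of the members in the bin with 95% Wilson intervals, rising from 10.7% to 80.6%.

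The relation to GC was present inside each set of controls. Among members with a peak in all 3 controls, 11.4% at up to 45% GC, 31.8% at over 45 to 55% and 46.6% above 55% were kept in PhenDC3 replicate 1. Among those with Ctrl replicates 1 and 2 alone the shares were 41.2%, 75.9% and 90.2%, and with Ctrl replicates 2 and 3 alone 2.69%, 10.7% and 26.9%. The difference in median GC was 6.7 points in all, 6.47 points when taken within the sets of controls, and 3.9 points without Ctrl replicate 2. Intervals on such shares cover counting error across regions only. Regions are not replicates, and with 3 against 2 lists used by the rule itself no p-value is given for them.

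A region was G4-positive if a G4 predicted by G4Hunter at threshold 2 reached within 500 bp of its centre. Members were G4-positive in 68.1% of cases (67.5 to 68.7%), between common origins at 78.6% and suppressed origins at 43.9%. The difference from common was −10.5 points (95% Newcombe interval −11.3 to −9.73), with members higher in 2 of 21 chromosomes. The difference from suppressed was 24.2 points (23.3 to 25.2), with members higher in 21 of 21. Without Ctrl replicate 2 the difference from common was −6.39 points, and with equal numbers of peaks per list it was −5.53 points.

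The same order was seen at the summits of each list taken alone. Of the peaks at members kept in PhenDC3 replicate 1, 63.1% were G4-positive in Ctrl replicate 1, 63.5% in Ctrl replicate 2, 64.2% in Ctrl replicate 3 and 64.2% in PhenDC3 replicate 1. Peaks at members kept in replicate 2 had 72.9%, 70.9%, 69.2% and 71.2%, the last in PhenDC3 replicate 2. In the controls, peaks of suppressed origins ranged from 43.0% to 48.1% and those of common origins from 74.97% to 77.9%. These 4 ranges did not overlap, although lists share most of the regions.

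Between the subgroups the difference was −7.22 points (−8.49 to −5.94), from 64.2% kept in replicate 1 to 71.4% kept in replicate 2. It was −7.64 points within bins of GC content, −4.64 points without Ctrl replicate 1 and −11.8 points without Ctrl replicate 3. It turned round at the looser G4Hunter threshold of 1.5, to 1.92 points (89.6% against 87.7%), and among members with Ctrl replicates 2 and 3 alone, where 66.2% of those kept in replicate 1 and 56.1% of those kept in replicate 2 were G4-positive. The strongest G4 was a median of 35 bases long in the first subgroup and 41 in the second, beside 40 in common and 35 in suppressed origins.

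Predicted G4 sat upstream of the centre when the G-rich strand was read 5′ to 3′. In members kept in PhenDC3 replicate 2 the profile was highest at −281 bp, where 12.98% of regions had a G4, and in those kept in replicate 1 at −312 bp with 8.83%. Common origins had 14.5% at −278 bp and suppressed origins 4.16% at −314 bp. On the downstream side, 100 to 400 bp from the centre, the mean was 1.57% and 1.54% in the subgroups.

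**Figure D3:**
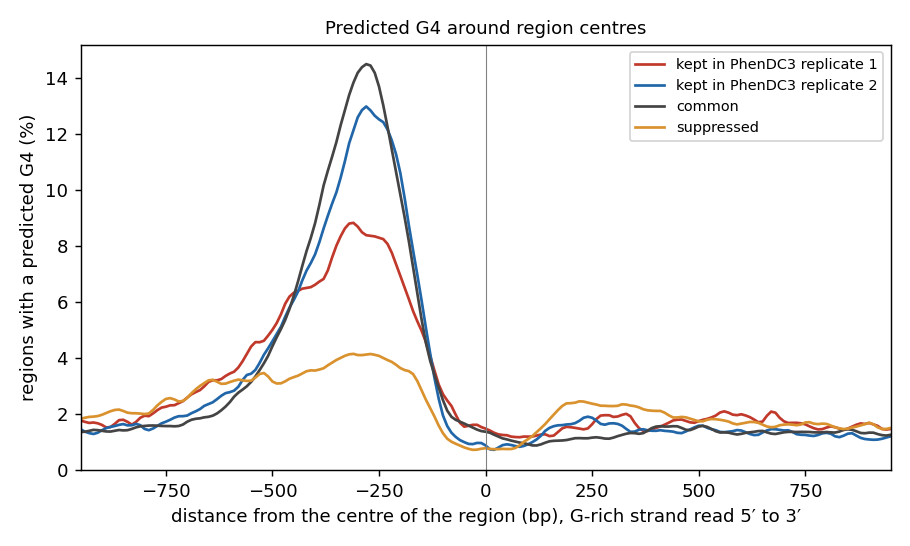
Percentage of regions with a predicted G4 (y axis) by distance from the centre in bp (x axis, G-rich strand read 5′ to 3′, smoothed over 25 bp). Members kept in PhenDC3 replicate 2 reach 12.98%, close below common origins at 14.5%, and those kept in replicate 1 reach 8.83%.

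The loops between G runs also differed, and these motifs were chosen after the strongest sequences had been seen. A-loop motifs were GGGAGGGAGGGA or GGGGAGGGGAGGGGA, and T-loop motifs GGGTGGGTGGGT or GGGGTGGGGTGGGGT, searched on both strands in the 1 kb window of every region. An A-loop motif was present in 9.62% of members kept in PhenDC3 replicate 1 (interval 9.04 to 10.2%) and in 5.39% of those kept in replicate 2 (4.99 to 5.82%), beside 7.34% of all 101678 origins and 6.09% of all regions. The T-loop motif went the other way, at 2.39% (2.101 to 2.72%) and 10.0% (9.51 to 10.6%), beside 6.31% of all origins and 4.78% of all regions. Common origins had an A-loop motif in 7.77% and a T-loop motif in 7.24%, and suppressed origins in 6.04% and 2.34%. The low T-loop share is therefore not particular to members kept in PhenDC3 replicate 1, since suppressed origins had it too.

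The A-loop difference of 4.23 points had the same sign in 20 of 21 chromosomes, and the T-loop difference of −7.65 points was positive in 1 of 21. Among members with a peak in all 3 controls the A-loop shares were 13.4% and 5.97%, and the T-loop shares 3.02% and 11.3%. At over 45 to 55% GC the A-loop shares were 15.95% and 6.89%, and the T-loop shares 3.14% and 7.78%. A match is only a match of letters, and no structure was measured. Of the sequences printed above, that of 2900026A02Rik holds a T-loop motif. That of Gdap1 does not, since its inner G runs are longer.

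**Figure D4:**
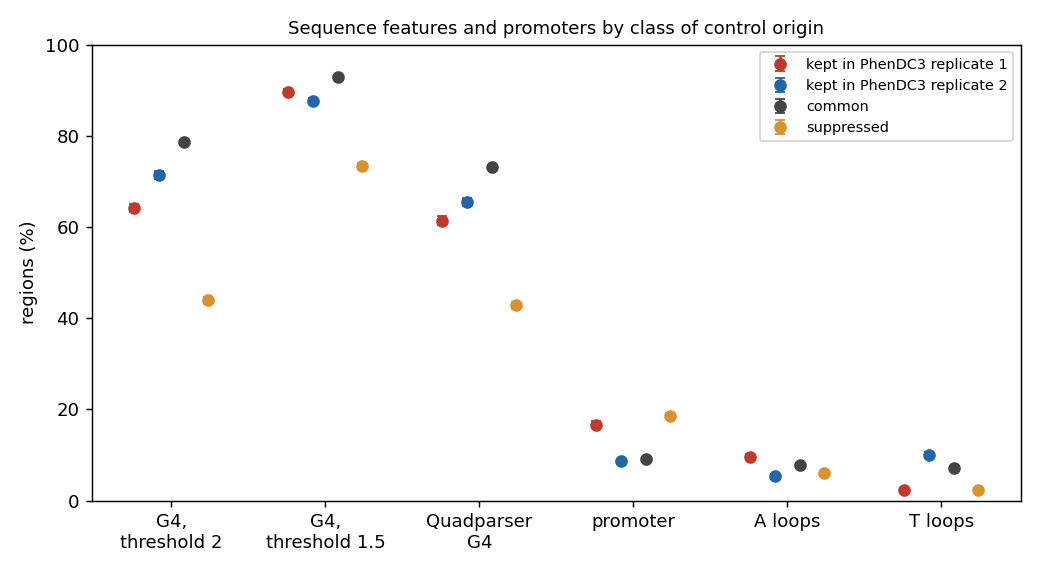
Percentage of regions (y axis) with a G4 predicted at 3 settings, with the centre in a promoter, or with an A-loop or T-loop motif in 1 kb, for the 4 classes of control origin with 95% Wilson intervals. For T-loop motifs the subgroup kept in PhenDC3 replicate 2 is at 10.0% and that kept in replicate 1 at 2.39%.

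Members kept in PhenDC3 replicate 1 were more often at genes. The centre lay in a promoter, the 2 kb upstream of a transcription start site (TSS), for 16.6% of them and for 8.65% of those kept in replicate 2, a difference of 7.98 points (7.07 to 8.89). Within bins of GC content this difference was −1.69 points, so its direction turned round, and without Ctrl replicate 2 it was 0.656 points. Members together had 12.3% in promoters, between common origins at 9.05% and suppressed origins at 18.6%. The difference from common was 3.23 points (2.69 to 3.77), 0.821 points without Ctrl replicate 1, 0.654 points without Ctrl replicate 2 and 5.36 points without Ctrl replicate 3. That from suppressed was −6.28 points (−6.99 to −5.57), −0.594, −0.718 and −11.3 points on the same omissions.

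Coding exons held 8.37% of the first subgroup and 1.82% of the second, and regions between genes 31.1% and 48.6%. Common origins had 3.90% and 44.3% in these 2 locations, and suppressed origins 5.61% and 32.4%. By location, members kept in replicate 1 were 79.3% of those in coding exons, 61.5% of those in promoters, 45.3% of those in introns and 34.8% of those between genes. On the X chromosome lay 1.27% and 2.49% of the subgroups, where the whole lists of PhenDC3 replicates 1 and 2 had 1.21% and 2.02%. Across the chromosomes the share of members kept in replicate 1 ran from 29.8% on X to 57.6% on chromosome 11.

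Origins often lie in clusters, and members kept in PhenDC3 replicate 1 had more neighbours. Within 7 kb of a member there were 1.47 ± 1.72 other origins (mean ± SD over 20814 regions), with 1.91 ± 1.91 for those kept in replicate 1 and 1.10 ± 1.44 for those kept in replicate 2. Common origins had 1.40 ± 1.70 and suppressed origins 1.72 ± 1.72, so each class spread over more than these differences. No other origin lay within 7 kb of 25.2% of the first subgroup and 45.01% of the second. The share was 37.9% for common and 26.3% for suppressed origins. The nearest common origin was a median of 10372 bp away from the first and 21524 bp from the second.

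Genes with a member at the promoter were compared in RNA-seq, whose libraries the rule did not use. A member overlapped the 2 kb upstream of a TSS for 3019 genes, of which 2267 passed the filter on low counts. With PhenDC3, 436 of them were higher (19.2%) and 417 lower (18.4%) at an adjusted p of at most 0.05 by the edgeR quasi-likelihood test, beside 18% higher and 18.7% lower of all 13972 genes tested. Together that is 853 genes, or 37.6%, with 36.8% of all tested genes called. The median log2 fold change was 0.010, as it was over all genes. These shares are near the background. Genes at members kept in PhenDC3 replicate 1 had 18.4% higher and 18% lower of 1552, and those at members kept in replicate 2 had 21.4% higher and 18.8% lower of 814. Without PhenDC3 RNA-seq replicate 1, 560 genes at members were called in place of 853, or 24.3%. Over all tested genes the number went from 5135 to 3332, or 23.5%.

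Expression in the controls was close to that of all tested genes, with a median of 6.50 RPKM, which scales counts for gene length and library size, for genes at members and 6.26 for all genes tested. Members of both subgroups lay at promoters of the same gene for 123 genes, though not always at the same promoter. Neither a common nor a suppressed origin lay at the promoter for 1888 genes with a member. In bulk RNA, fewer cells with a transcript and less transcript per cell cannot be told apart.

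The 5 largest falls at members kept in PhenDC3 replicate 1, among called genes with a mean of at least 1 CPM and no overlap between conditions, were those of Lef1, Gbx2, Pou3f1, Sox3 and Bcl11a. Lef1, a DNA-binding partner of β-catenin in Wnt signalling, had 21.1, 21.2 and 33.5 normalized CPM in the controls and 0.555, 0.335 and 0.327 with PhenDC3. Its log2 fold change was −5.93 ± 0.30 (SE, edgeR adjusted p = 2.6e-05). Gbx2, a homeobox factor, had 26.1, 34.1 and 27.4 CPM and then 0.867, 0.335 and 0.799. For Pou3f1, a POU factor of epiblast and neural cells, the values were 7.46, 14.5 and 15.5 CPM and then 0.694, 0.585 and 1.20. In all 3 genes the lowest control was several times the highest treated sample. Sox3, a SoxB1 factor of neural progenitors, fell by 3.27 on the log2 scale, and Bcl11a, a zinc-finger repressor with members of both subgroups at its promoters, fell by 3.23.

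At the Lef1 promoter the member (chr3:131111544-131111936) had a fold enrichment of 5.41 and 4.23 in Ctrl replicates 1 and 2 and of 4.56 in PhenDC3 replicate 1, with no peak in the other lists. The Gbx2 member (chr1:89930606-89931311) had 6.74, 8.11 and 6.08 in the same lists. Both have no G4 at threshold 2 within 500 bp of their centre and lie in windows of 63.9% and 69.3% GC.

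Rises at members kept in PhenDC3 replicate 1 were smaller than these falls, from control means of 0.285 to 6.75 CPM. Ppp2r2c, a regulatory subunit of a serine/threonine phosphatase, had 6.33, 6.52 and 7.39 CPM in the controls and 39.1, 40.5 and 27.0 with PhenDC3, a log2 fold change of 2.40 ± 0.18 (SE, edgeR adjusted p = 6.9e-05). It carries a member of each subgroup. Apba1, an adaptor of the amyloid precursor protein at synapses, had 0.398, 0.456 and 0 CPM and then 2.57, 2.38 and 3.01. LOC381967, the ubiquitin ligase gene Rnf144b and the potassium channel gene Kcnk2 rose by 2.42 to 2.45 on the log2 scale.

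At members kept in PhenDC3 replicate 2, the tubulin polyglutamylase gene Ttll6 had 3.33, 4.74 and 1.69 CPM in the controls and 29.0, 41.4 and 19.4 with PhenDC3. Hhip, an inhibitor that binds hedgehog ligands, had 0.869, 0.957 and 1.38 CPM and then 8.05, 4.93 and 8.17. Treated samples were all above the controls in both. Ebf4, a factor of the early B-cell factor family, rose by 3.53 on the log2 scale, Pgpep1l by 2.54 and the homeobox gene Onecut2 by 2.51, each from a control mean under 1 CPM.

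Falls in the second subgroup included Tcf15, a basic helix-loop-helix factor of the epiblast and paraxial mesoderm, with 14.8, 23.2 and 18 CPM in the controls and 2.71, 3.14 and 2.80 with PhenDC3. Its log2 fold change was −2.69 ± 0.20 (SE, edgeR adjusted p = 6.9e-05). Cntfr, the receptor of ciliary neurotrophic factor, fell by 2.60 on the log2 scale. Diras1, a small GTPase of the Ras family, fell by 2.50. In each of these named genes the 2 conditions did not overlap, as the rule for naming required, and 50.6% of all tested genes did not overlap either.

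**Figure D5:**
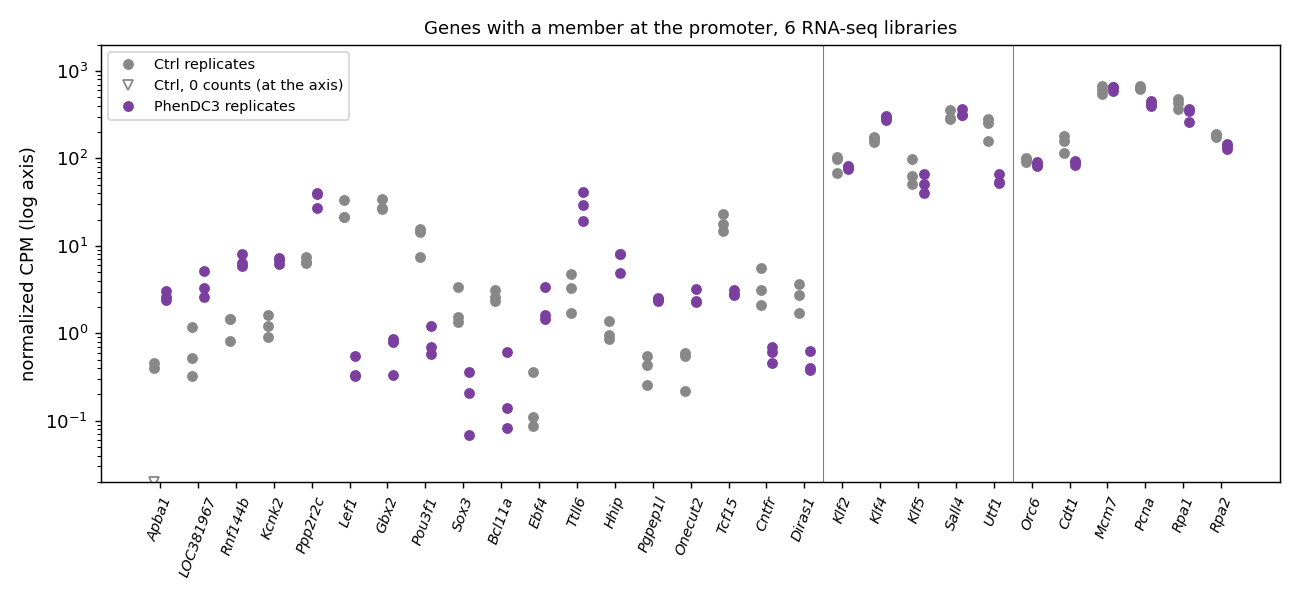
Normalized CPM (log axis) of the named genes with a member at the promoter in the 3 Ctrl and 3 PhenDC3 RNA-seq libraries, 1 point per library, with an open triangle at the axis for a value of 0. Vertical lines separate the largest changes, the pluripotency list and the replication list. Lef1 goes from 21.1 to 33.5 CPM in the controls to at most 0.555 with PhenDC3.

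A list of 20 pluripotency genes, in which 7 rose and 6 fell (18% and 18.7% over all tested genes), had 5 with a member at the promoter, of which 1 rose and 1 fell. Common origins lay at the promoter of 5 genes of the list and suppressed origins at that of 3. Over all 26180 annotated genes, 3019 had a member at the promoter, as did 2267 of the 13972 tested. Klf4, a Krüppel-like factor of naive ES cells, had 154, 177 and 167 CPM in the controls and 299, 309 and 273 with PhenDC3 (log2 fold change 0.82 ± 0.11 SE, edgeR adjusted p = 0.00076). Utf1, a chromatin-bound factor of undifferentiated cells, had 158, 257 and 282 CPM and then 53.8, 52.2 and 65.9 (−2.02 ± 0.21 SE, edgeR adjusted p = 0.00023). The related Klf2 and Klf5 had log2 fold changes of −0.18 and −0.43, and Sall4, a zinc-finger factor with the only member of the list kept in PhenDC3 replicate 2, had 0.08. None of those 3 passed the test. The Klf4 member (chr4:55532767-55533087) had 5 predicted G4 around it and an enrichment of 8.79, 9.33 and 9.03 in the controls and 6.59 in PhenDC3 replicate 1.

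Of 35 genes of replication initiation, 1 rose and 10 fell, where 18% and 18.7% of all tested genes did, and 6 had a member at the promoter, each kept in PhenDC3 replicate 1. Common origins lay at the promoter of 3 of these genes and suppressed origins at that of 3. Over all 26180 annotated genes, 3019 had a member at the promoter. For 2037 it was one kept in replicate 1 and for 1105 one kept in replicate 2, with some genes in both counts. Pcna, the sliding clamp of the polymerases, had 643, 614 and 671 CPM in the controls and 417, 395 and 450 with PhenDC3 (log2 fold change −0.61 ± 0.11 SE, edgeR adjusted p = 0.0025). Cdt1, which helps load the helicase, had 114, 182 and 157 CPM and then 90.6, 94.4 and 85.0 (−0.75 ± 0.16 SE, edgeR adjusted p = 0.0075). Rpa2, a subunit of the protein that coats single-stranded DNA, fell by 0.41 on the log2 scale (edgeR adjusted p = 0.014), and did not pass without PhenDC3 replicate 1 (0.063) or replicate 3 (0.062). Orc6 of the origin recognition complex, the helicase subunit Mcm7 and Rpa1, the largest subunit of the same coat, had log2 fold changes of −0.17, 0.05 and −0.38 that did not pass. At the Pcna promoter the member (chr2:132252872-132253496) had an enrichment of 8.11, 3.92 and 7.84 in the controls and 4.12 in PhenDC3 replicate 1.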

How the data were processed

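Per the authors, SNS-seq reads were mapped to mm10 with Bowtie2, and MACS2 narrow peaks overlapping a SICER region were kept in each replicate, without pooling. The deposited lists give a fold ratio over the RNase-treated library, −log10 p-values and −log10 q-values, and a score and a summit position that the authors' caller derived. RNA-seq reads were mapped with TopHat2 and the deposited raw counts made with HTSeq. Strand setting and annotation of the counting are not given in the sources used here, so overlapping or antisense genes are uncertain. The authors' DESeq2 table (fold changes and p-values) and pseudo-counts were not used.

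Peaks were joined as described, with mitochondrial peaks (7 to 16 per list) left out. G4 were predicted on both strands with G4Hunter (window 25) and with Quadparser (4 or more G runs of 3 or longer, separated by 1 to 7 bases). TSSs came from 45756 curated RefSeq transcripts of GRCm38. RNA-seq was fitted with edgeR 4.0.16 (robust quasi-likelihood, relative log expression, filterByExpr, Benjamini-Hochberg over all genes tested). Nothing in the labels says that RNA-seq replicates were separate cultures, so p-values measure the spread between these samples. Scripts (Python 3.11.15, R 4.3.3) were tested on simulated data. Named regions ranked highest by the lowest control fold enrichment, among members with a peak in all 3 controls and not on chromosome 18. Named genes were the 5 largest non-overlapping rises and falls per subgroup with a mean of at least 1 CPM. Every gene of 2 lists with a member was added. The members and lists were chosen with earlier results of these data known. By these rules 1 further region and 1 further gene were chosen that are not reported here.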

Additional observations from a re-analysis of the deposited data

How the results depend on the processing

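The number of members was 13134 with only the peaks above each list's median, between 11904 and 14733 without 1 control, and within 1.5 times the main number otherwise. The G4 and promoter differences of all members from common and suppressed origins kept their direction under every alternative run. For these promoter differences, bins of GC content were not among the alternatives.

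The G4 difference from common origins was −4.46 points at threshold 1.5, −4.33 within 250 bp, −9.56 with Quadparser, −11.3 within bins of peak strength, −9.60 away from TSSs, −5.53 with equal lists and −9.41 to −6.39 without 1 control. That from suppressed origins was 15.2, 13.3 and 20.8 points at the first 3 of these settings, 23.2 on control summits, 26.4 away from TSSs, 23.2 with equal lists and 20.5 to 29.1 without 1 control. Between subgroups it was 1.92 at threshold 1.5, −3.28 within 250 bp, −4.07 with Quadparser, −9.16 within sets of controls (added after the data were seen) and −11.8 to −4.64 without 1 control. The cause of the turn at 1.5 was not tested.

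The promoter differences, with 2 kb on both sides of the TSS, were 6.53 from common, −8.92 from suppressed and 19.5 between subgroups. From suppressed it was −5.51 with 1 kb upstream. With equal lists they were 0.952 and −5.18 from common and suppressed. Without 1 control they were 0.654 to 5.36, −11.3 to −0.594 and 0.656 to 9.93. Between subgroups it was 3.80 within sets of controls and −1.69 within GC bins, both added later, and the cause was not tested. The median GC difference was 5.7 with equal lists and 3.9 to 8.1 without 1 control. Near peaks were 15.99% within 500 bp and 16.7% with equal lists. Neighbours were 3.43 within 20 kb and 1.11 among other classes.

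Calls in RNA-seq were 3332 to 5416 in all and 560 to 906 at member promoters without 1 library, and 1466 genes with promoters on both sides. RNA-seq samples with the same replicate number also carry adjacent leading numbers in the column labels of the counts. No label states that they are paired, and the main fit does not pair them. Deviations of the samples correlated at 0.09, 0.544 and 0.405 for numbers 1, 2 and 3, each best with its own number. The replicate block gave 7489 and 1267 calls in place of 5135 and 853. Leaving out a PhenDC3 list leaves no such members. For the 29 named genes, 256 of 261 repeats kept the direction and side of the threshold. Klf5 and Rpa1 passed with the replicate block, Rpa2 failed without PhenDC3 replicate 1 or 3, and Mcm7 ranged from −0.02 to 0.13 without 1 library.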
